A study of Danio rerio with 24 samples.

Results

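Gene expression was compared between vitamin E (VitE) deficient (E–) and VitE sufficient (E+) zebrafish embryos at 18 hours post-fertilization (hpf). The comparison used the 4 E– pools and the 4 E+ pools labelled 18 hpf, 8 of the 24 pools in the series, and the other pools were 12 and 24 hpf embryos from the same diets. Both groups were wild-type Tropical 5D strain, and each pool was a whole-embryo lysate of 10 staged embryos. Per the methods, embryos entered the pools only if their morphology was normal and they had reached the landmarks of their stage. The parents were allocated to the E– or E+ diet at 55 days post-fertilization and kept on it for at least 80 days and up to 9 months before group spawning. The embryos themselves received no treatment, so that the groups differed in the diet of the adults that spawned them. Whether separate spawnings gave the 4 pools of 1 diet is stated neither in the labels nor in the methods. The p-values below therefore measure the spread between these pools, and VitE status and the spawning cannot be told apart.

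VitE, chiefly α-tocopherol, is a lipid-soluble antioxidant that stops the chain reaction of lipid peroxidation in membranes rich in polyunsaturated fatty acids. The embryo depends on the VitE that the mother placed in the yolk, and lipoproteins and the α-tocopherol transfer protein carry it to the tissues. At 18 hpf a zebrafish embryo is late in segmentation: somites become muscle, brain regions and the eye take shape, and energy comes from the yolk.

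RNA was sequenced with a kit that primes at the poly(A) tail, so that reads gather near the 3′ end of a transcript and a level is a count of tags rather than of transcript length. Total gene counts were 12361569 to 19733049 per E+ pool and 14473763 to 16221517 per E– pool. One gene, ENSDARG00000080337, took from 27.9% to 33.4% of them. In replicate 2 of E+, 13.2% of reads did not map, against 9.09% to 9.26% in the other E+ pools. Every group had 2 pools on each of 2 sequencing lanes.

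Of 17292 genes tested, 312 (1.8%) were differentially expressed (DE) between E– and E+ embryos, 190 higher (1.1%) and 122 lower (0.706%) in E– embryos. A gene was called DE at a Benjamini–Hochberg false discovery rate (FDR) under 0.1 from edgeR's quasi-likelihood test, and every adjusted p below is that FDR. The median log2 fold change (log2FC, E– minus E+) was 0.59 among the genes that were higher and -0.43 among those that were lower, against -0.001 over all genes tested. Changes of 1 or more on the log2 scale were seen in 43 higher and 18 lower genes. These were weakly expressed, with a median of 2.63 CPM (the count of a gene scaled to the size of its library), whereas the DE genes with smaller changes had a median of 29.0 CPM. The pools of the 2 groups did not overlap for 249 of the 312 DE genes, against 6.78% of all genes tested (3.38% with E– higher and 3.39% with E– lower). The same pools gave the DE calls, so this count is no separate support for them. With the sequencing lane in the model 355 genes were DE, 310 of them among the 312. The number was lower without any 1 pool other than replicate 4 of E+, whose removal gave 337. It was 198, 294, 182 and 158 without replicates 1 to 4 of E–. Without replicates 1 to 3 of E+ it was 212, 196 and 244. In lysates of whole embryos, fewer cells of a type and less RNA per cell cannot be told apart.

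**Figure D1:**
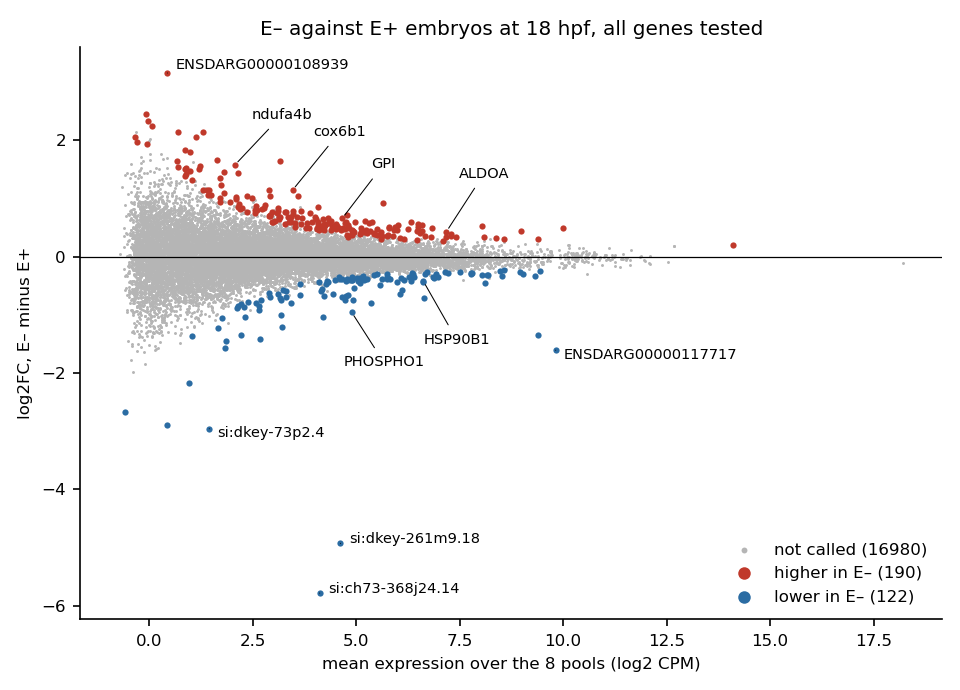
Each point is 1 of the 17292 genes tested, with its mean expression over the 8 pools on the x axis (log2 CPM) and its log2FC, E– minus E+, on the y axis. Most DE genes (190 red, 122 blue) changed by less than 1 on the log2 scale, and the 2 largest falls belong to si:ch73-368j24.14 and si:dkey-261m9.18.

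Several genes of glycolysis, the pathway that splits glucose into pyruvate, were higher in E– embryos. Of 28 glycolysis genes tested, 6 rose, none fell and 18 had a log2FC above 0, with a median of 0.16. Over all genes tested, 1.1% rose, 0.706% fell and 49.8% had a log2FC above 0. The median was also 0.16 in 2 lists with no DE gene, neural crest and pigment (27 tested) and the p53 pathway (17 tested). The list was drawn up with the pathway named in the study of these samples in view, and is not independent evidence of its direction. The DE genes spanned the pathway from its second step to its last, the last through PKM alone, at a very low level. GPI (ENSDARG00000012987), the isomerase that turns glucose 6-phosphate into fructose 6-phosphate, had 17.5, 16.63, 22.6 and 21.6 CPM in E+ replicates 1 to 4 and 31.1, 28.6, 31.0 and 32.4 CPM in the E– replicates. The lowest E– pool thus lay above the highest E+ pool, with a log2FC of 0.65 ± 0.11 (SE, n = 4 pools per group; adjusted p = 0.00347). The difference was 0.801 on lane 7 and 0.517 on lane 8 (log2 scale).

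Aldolase splits the 6-carbon sugar into its triose phosphates. ALDOA (ENSDARG00000011665) had 139, 107, 129 and 120.3 CPM in E+ pools against 167, 159, 166 and 174 CPM in E– pools, a log2FC of 0.43 ± 0.08 (adjusted p = 0.00681). ALDOC (ENSDARG00000019702) had 14.1, 12.9, 14.7 and 15.2 CPM against 19.97, 16.9, 27.7 and 24.9 CPM, a log2FC of 0.65 ± 0.14 (adjusted p = 0.0159). Neither aldolase overlapped between the groups, and ALDOC was spread more widely among the E– pools than among the E+ pools. A second gene with the symbol ALDOA (ENSDARG00000034470) had a log2FC of 0.31 ± 0.10 that did not pass (adjusted p = 0.134).

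The later steps turn triose phosphate into pyruvate and yield ATP. PGK2 (ENSDARG00000054191), a phosphoglycerate kinase that was not on the list and was added after its values were seen, had 15.2, 7.22, 12.9 and 12.9 CPM in E+ pools and 24.4, 17.1, 17.6 and 26.7 CPM in E– pools. Its log2FC was 0.85 ± 0.17 (adjusted p = 0.0144). For pgam1a (ENSDARG00000005423), a phosphoglycerate mutase, the values were 14.8, 12.3, 16.1 and 17.9 CPM against 24.3, 18.98, 24.3 and 19.3 CPM, a log2FC of 0.51 ± 0.13 (adjusted p = 0.0559). Both genes were higher in each E– pool than in any E+ pool. ENO1 (ENSDARG00000022456), an enolase, had 19.5, 20.5, 24.0 and 20.8 CPM in E+ and 27.3, 33.7, 33.1 and 32.1 CPM in E– pools, a log2FC of 0.57 ± 0.11 (adjusted p = 0.00699). PKM (ENSDARG00000099860), pyruvate kinase, rose from a very low level, 0.238, 0.267, 0.515 and 0.0662 CPM against 0.85, 0.952, 1.33 and 1.19 CPM, a log2FC of 1.98 ± 0.57 (adjusted p = 0.0983). The other gene of the same symbol (ENSDARG00000099730), the more abundant one in E+ embryos, went the other way without passing the test, at -1.47 ± 0.52 (adjusted p = 0.212). Reads that fit duplicated genes equally well were not counted on either, so the split between such copies is uncertain.

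Other members of the pathway moved less. The log2FC was 0.43 for LDHA (ENSDARG00000101251; adjusted p = 0.169), 0.21 for LDHB (adjusted p = 0.201) and 0.11 for GAPDH (adjusted p = 0.614). HK1 and HK2, the hexokinases that trap glucose in the cell, had values of 0.10 and -0.30 (adjusted p = 0.643 and 0.378). In a fit of all 24 pools, which share 1 estimate of the spread, only PKM among 31 members tested stayed DE (adjusted p = 0.0853), and the other 5 had an adjusted p from 0.164 (ALDOA) to 0.631 (ENO1). PGK2 had an adjusted p of 0.34 in that fit. Across the alternative fits listed under data processing, PKM was DE in 5 of 15 and pgam1a in 11 of 16. GPI, ALDOA, ALDOC and ENO1 were each DE in 15 of 16.

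**Figure D2:**
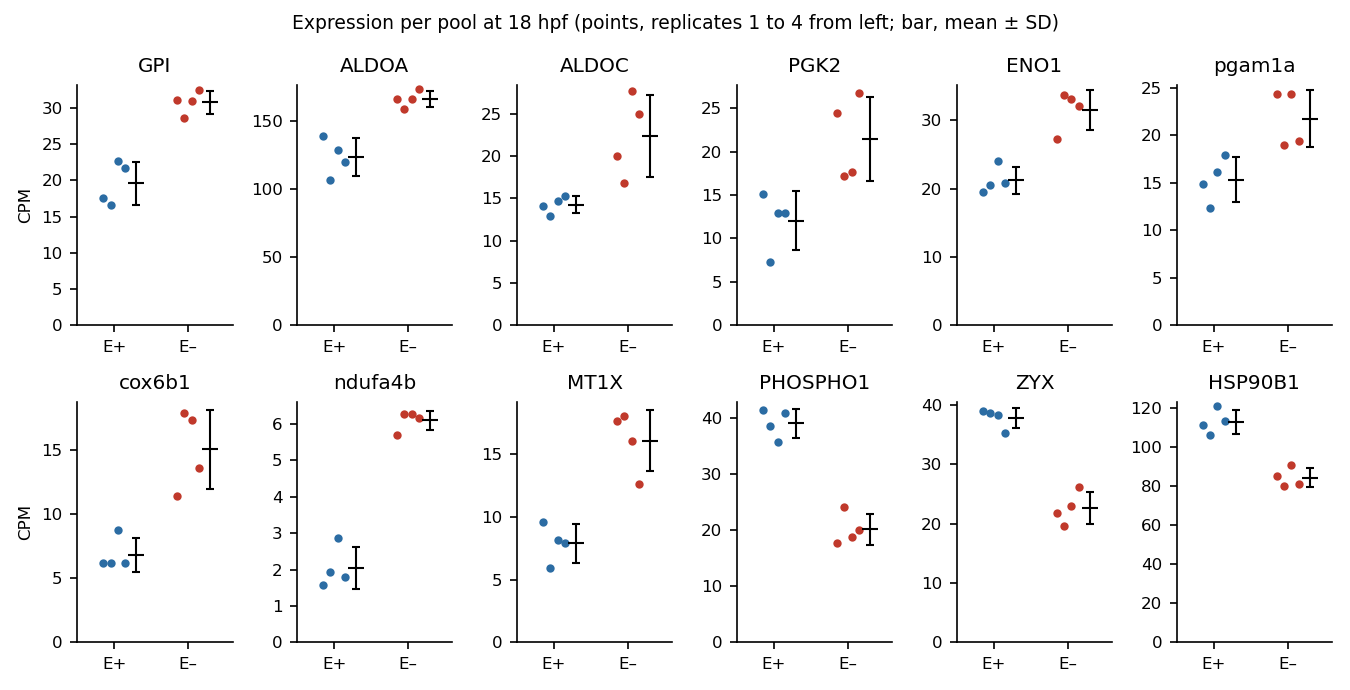
CPM (y axis, from 0) of 12 genes in the 4 E+ pools (blue) and the 4 E– pools (red) at 18 hpf; points are replicates 1 to 4 from left to right, and bars give the mean ± SD. In each panel the groups do not overlap: the 6 genes of the upper row, all glycolytic enzymes, and cox6b1, ndufa4b and MT1X are higher in E–, and PHOSPHO1, ZYX and HSP90B1 are lower.

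The respiratory chain in the mitochondrial inner membrane passes electrons from NADH and succinate to oxygen, and its subunits come from both the nuclear and the mitochondrial genome. Of 42 nuclear genes of the chain tested, 4 rose and 2 fell, against 1.1% and 0.706% of all genes. The median log2FC of the 42 was -0.005. Those that rose most belong to complex IV, cytochrome c oxidase. cox6b1 (ENSDARG00000045230) had 6.19, 6.15, 8.76 and 6.16 CPM in E+ and 11.4, 17.8, 17.3 and 13.6 CPM in E– pools, a log2FC of 1.14 ± 0.17 (adjusted p = 0.00073). ndufa4b (ENSDARG00000056108), whose human counterpart NDUFA4 associates with complex IV, had 1.59, 1.93, 2.87 and 1.79 CPM against 5.70, 6.26, 6.26 and 6.15 CPM, a log2FC of 1.57 ± 0.24 (adjusted p = 0.00103). COX7A2 (ENSDARG00000110700) had 21.9, 13.4, 23.5 and 25.1 CPM against 30.04, 36.2, 31.9 and 38.2 CPM, a log2FC of 0.71 ± 0.14 (adjusted p = 0.0091). None of the 3 overlapped between the groups. In the fit of all 24 pools ndufa4b and COX7A2 were DE (adjusted p = 0.0357 and 0.0124), and cox6b1 was not (adjusted p = 0.225).

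For each of these genes a copy or relative at a higher level did not pass the test. The log2FC was -0.03 for cox6b2 (277 CPM in E+), -0.12 for NDUFA4 (332 CPM) and -0.004 for the other COX7A2 gene (ENSDARG00000053217; 91.1 CPM), with an adjusted p of 0.924, 0.55 and 0.992. In complex III, UQCRC1 rose by 0.31 ± 0.09 (adjusted p = 0.0891), though it was DE in only 8 of the 16 alternative fits. Of the genes for the other core subunit, uqcrc2a fell by 0.35 ± 0.09 on the log2 scale (adjusted p = 0.0487) and UQCRC2 (ENSDARG00000071691) had a log2FC of 0.12 ± 0.11 (adjusted p = 0.715). SDHB, the iron-sulfur subunit of complex II, was 36.7, 42.7, 35.86 and 34.6 CPM in E+ and 32.8, 23.5, 28.0 and 27.2 CPM in E– pools, with no overlap, and fell by 0.43 ± 0.11 (adjusted p = 0.0438). Neither fall was DE without replicate 2 of E–, without replicate 3 of E– or without replicate 2 of E+, SDHB was not without replicate 4 of E–, and uqcrc2a was not without replicate 1 of E– or replicate 4 of E+.

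Of the 13 protein-coding genes of the mitochondrial genome, all tested, 3 fell, none rose and 10 had a log2FC below 0 (median -0.10). Over all genes tested 0.706% fell, 1.1% rose and 8678 of 17292 had a log2FC below 0. MT-ND5 (ENSDARG00000063921), a subunit of complex I, had 353, 354, 297 and 270.2 CPM in E+ and 246, 224, 229 and 235 CPM in E– pools. The groups did not overlap, and the log2FC was -0.45 ± 0.08 (adjusted p = 0.00465). MT-ND3, also of complex I, had 335, 268, 345 and 325 CPM against 262, 229, 271 and 255 CPM, a log2FC of -0.32 ± 0.08 (adjusted p = 0.0364). mt-atp8, of ATP synthase, had 49.1, 85.4, 40.7 and 31.3 CPM against 29.3, 35.4, 31.6 and 22.5 CPM, a log2FC of -0.81 ± 0.19 (adjusted p = 0.0289). Both overlapped between the groups, and the highest mt-atp8 value came from replicate 2 of E+. The most abundant of the 13, MT-CYB (2735 CPM in E+) and MT-CO3 (2573 CPM), had a log2FC of -0.04 and -0.17 (adjusted p = 0.867 and 0.246). The share of all gene counts on the 13 genes was 1.40% ± 0.153 in E+ and 1.37% ± 0.102 in E– pools (SD, n = 4; exact permutation test, two-sided, p = 0.714).

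Hypoxia pathway genes are controlled by hypoxia-inducible factors (HIF), whose α subunits are hydroxylated and degraded when oxygen, iron and ascorbate are present. Of 21 tested, 3 rose and none fell, against 1.1% and 0.706% of all genes. A log2FC above 0 was seen in 17 of the 21 (median 0.17), against 49.8% of all genes. The study of these samples drew attention to this group, so the direction is not independent evidence. NDRG1 (ENSDARG00000032849), a hypoxia-responsive gene in human cells, had 32.7, 27.5, 36.6 and 30.9 CPM in E+ and 39.4, 42.5, 51.8 and 55.5 CPM in E– pools, a log2FC of 0.57 ± 0.11 (adjusted p = 0.00826). IGFBP1, an insulin-like growth factor binding protein, had 12.0, 7.97, 11.7 and 13.2 CPM against 16.5, 13.1, 18.4 and 18.7 CPM, a log2FC of 0.58 ± 0.15 (adjusted p = 0.0678). EGLN2, one of the prolyl hydroxylases that mark HIF for degradation, had 9.05, 11.1, 12.2 and 8.60 CPM against 12.4, 13.5, 18.8 and 15.4 CPM, a log2FC of 0.55 ± 0.15 (adjusted p = 0.0863). NDRG1 and EGLN2 did not overlap between the groups, and for IGFBP1 1 E– pool (replicate 2) lay just below the highest E+ pool. HIF1A itself had a log2FC of -0.10 ± 0.07 (adjusted p = 0.614), and 1 of the VEGFA genes (ENSDARG00000103542) one of 0.002 (adjusted p = 0.998). Only 1 gene of the list was DE without replicate 3 or 4 of E– or without replicate 1 or 2 of E+, and none in the fit of all 24 pools. Across the 16 alternative fits IGFBP1 was DE in 9 and EGLN2 in 10.

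EGLN2 was also the only member that changed among 23 ascorbate-dependent hydroxylases and demethylases tested (median 0.003), against 1.8% of all genes. Of 27 collagen genes and genes of collagen modification, 1 rose and 2 fell, against 1.1% and 0.706% of all genes. COL1A1 (ENSDARG00000035809), a chain of the main fibrillar collagen, had a log2FC of 0.30 ± 0.08 (adjusted p = 0.0802), and col8a1a, expressed in the notochord and its sheath, one of -0.80 ± 0.23 (adjusted p = 0.0983), with overlapping pools. They were DE in 8 and 7 of the 16 alternative fits. SERPINH1 (ENSDARG00000019949), the collagen chaperone of the endoplasmic reticulum (ER), had a log2FC of -0.34 ± 0.09 (adjusted p = 0.0559), also with overlap.

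Of 34 heat shock and ER chaperone genes tested, 5 fell and 1 rose, against 0.706% and 1.1% of all genes. A log2FC below 0 was seen in 24 of the 34 (median -0.09), against 8678 of all 17292 genes. HSP90B1 (ENSDARG00000003570), the ER form of HSP90, had 111, 106, 121 and 113 CPM in E+ and 85.1, 80.0, 90.6 and 80.9 CPM in E– pools, a log2FC of -0.42 ± 0.08 (adjusted p = 0.00558). calr3b, a calreticulin that binds calcium and glycoproteins, had 404, 402, 446 and 400.3 CPM against 334, 321, 313 and 338 CPM, a log2FC of -0.34 ± 0.07 (adjusted p = 0.00845). Neither overlapped between the groups. CANX, the membrane-bound lectin chaperone calnexin, had a log2FC of -0.32 ± 0.07 (adjusted p = 0.0292), HSPA5, the ER HSP70 known as BiP, had one of -0.26 ± 0.07 (adjusted p = 0.0568), and SERPINH1 was the fifth. The cytosolic chaperones HSP90AB1 and HSPA8 (ENSDARG00000068992) had values of 0.01 and 0.14 (adjusted p = 0.981 and 0.481). The member that rose was hsf1, the transcription factor that turns on cytosolic heat shock genes, with 16.1, 15.8, 16.3 and 12.2 CPM against 23.8, 22.8, 23.1 and 19.02 CPM. Its log2FC was 0.55 ± 0.12 (adjusted p = 0.0244), with no overlap. Without replicate 4 of E– the list had 2 lower genes, HSP90B1 and calr3b, and 2 higher ones, and in the fit of all 24 pools only calr3b and CANX were DE (adjusted p = 0.0979 and 0.0876).

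The proteasome, which degrades tagged proteins, was represented by 39 genes, of which 2 fell and none rose, against 0.706% and 1.1% of all genes. A log2FC below 0 was seen in 33 of the 39 (median -0.11), against 8678 of all 17292 genes. The study of these samples singled this pathway out, so that direction is not independent evidence. PSMB4 (ENSDARG00000054696), a β subunit of its core, had 299, 345, 318 and 326 CPM in E+ and 260.5, 253, 284 and 241 CPM in E– pools, a log2FC of -0.31 ± 0.07 with no overlap (adjusted p = 0.0261). PSMB1, another β subunit, had a log2FC of -0.28 ± 0.08 (adjusted p = 0.0845). Of 30 genes of DNA replication, POLD1 and POLA1, catalytic subunits of polymerases δ and α, were DE, against 1.8% of all genes. Their log2FC was -0.33 ± 0.09 and -0.26 ± 0.08 (adjusted p = 0.0745 and 0.0983). In this list 21 of the 30 had a log2FC below 0 (median -0.06), against the same 8678 of 17292. Without replicate 4 of E– no proteasome gene was DE, and no DNA replication gene was DE without any 1 of the E– pools or without replicate 2 or 3 of E+.

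**Figure D3:**
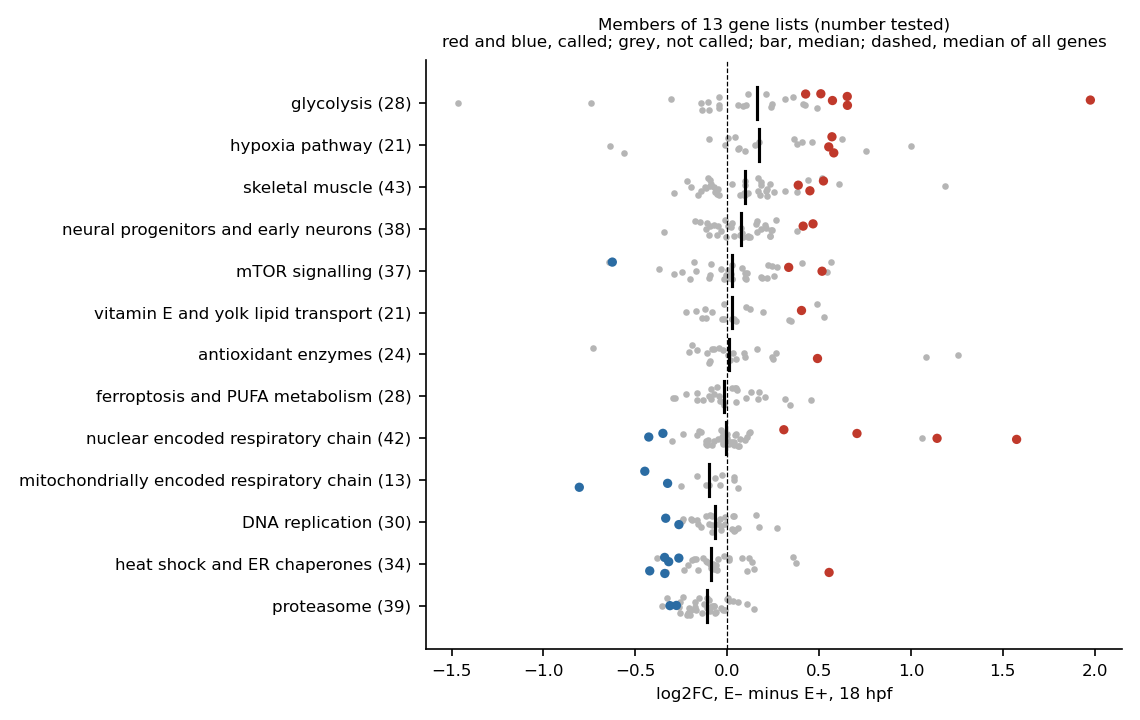
Log2FC (x axis, E– minus E+ at 18 hpf) of the tested members of 13 gene lists, with the number tested in parentheses; red and blue points are DE genes, grey points are not, black bars are list medians and the dashed line is the median of all genes. The medians lie between -0.11 for the proteasome and 0.17 for the hypoxia pathway.

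Genes closest to VitE itself were set beside the 1.8% of all genes tested that were DE. Of 21 genes of VitE and yolk lipid transport tested, 1 rose and none fell. It was apoa4b.1 (ENSDARG00000040298), an apolipoprotein of the yolk syncytial layer in zebrafish, with 76.8, 84.7, 80.3 and 78.6 CPM in E+ and 97.8, 111, 99.2 and 114 CPM in E– pools. The groups did not overlap and the log2FC was 0.40 ± 0.08 (adjusted p = 0.0091). TTPA, the α-tocopherol transfer protein, had too few reads to be tested at 18 hpf, and its relative TTPAL had a log2FC of 0.34 ± 0.26 (adjusted p = 0.647). The microsomal transfer protein MTTP and the apolipoprotein B gene APOB had values of -0.08 and -0.14 (adjusted p = 0.822 and 0.563).

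Lists for the defence against lipid peroxidation had 0 or 1 DE gene each. Such counts are too small to set apart from the 1.8% of all genes tested. Among 24 antioxidant enzymes 1 rose, GLRX (ENSDARG00000028106), a glutaredoxin that reduces protein thiols with glutathione. Its mean was 13.7 ± 1.92 CPM among E+ pools and 19.2 ± 2.01 CPM among E– pools (SD, n = 4), with a log2FC of 0.49 ± 0.13 with no overlap (adjusted p = 0.0683). gpx4a and the gene with the symbol GPX4 (ENSDARG00000076836), glutathione peroxidases that reduce lipid hydroperoxides, had a log2FC of -0.16 ± 0.09 and -0.10 ± 0.08 (adjusted p = 0.47 and 0.693). None of 20 genes of the Nrf2 response, none of 28 genes of ferroptosis and polyunsaturated fatty acid metabolism and none of 17 p53 pathway genes was DE, with a median log2FC of 0.05, -0.02 and 0.16.

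Of 37 genes of the mechanistic target of rapamycin (mTOR) pathway, which couples growth to nutrient supply, 2 rose and 1 fell (median 0.03). Over all genes tested 1.1% rose and 0.706% fell. sesn3 (ENSDARG00000015822), a sestrin that restrains mTOR complex 1, had 45.6, 52.8, 52.4 and 50.5 CPM in E+ and 56.0, 81.3, 75.6 and 75.5 CPM in E– pools, a log2FC of 0.52 ± 0.10 with no overlap (adjusted p = 0.0079). akt1s1, which encodes PRAS40, another inhibitor of that complex, had a log2FC of 0.33 ± 0.08 (adjusted p = 0.0408). RICTOR (ENSDARG00000100867), the defining subunit of complex 2, fell by 0.63 ± 0.18 on the log2 scale (adjusted p = 0.0935), but was DE in only 7 of the 16 alternative fits and, of those without 1 pool, only in that without replicate 1 of E+. MTOR and RPTOR had values of 0.005 and -0.17 (adjusted p = 0.994 and 0.782). In the methionine cycle MAT2A, which makes S-adenosylmethionine, was the only DE gene of 24, at -0.54 ± 0.13 with overlapping pools (adjusted p = 0.0394). In the fit of all 24 pools no member of the mTOR, methionine, hypoxia, proteasome, DNA replication or mitochondrially encoded lists was DE.

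Among genes that mark tissues of the segmenting embryo, 3 of 43 skeletal muscle genes rose (median 0.10), against 1.1% of all genes tested. atp2a1 (ENSDARG00000020574), the calcium pump of fast muscle, had 226, 177, 242 and 227 CPM in E+ and 349, 203, 334 and 366 CPM in E– pools, a log2FC of 0.52 ± 0.12 (adjusted p = 0.0267). ckma and ckmb, muscle creatine kinases, had 44.0, 46.6, 64.4 and 48.3 CPM against 79.5, 59.0, 72.8 and 66.3 CPM, and 33.6, 34.6, 42.3 and 40.0 CPM against 52.9, 37.8, 52.0 and 53.7 CPM. Their log2FC was 0.45 ± 0.11 and 0.39 ± 0.11 (adjusted p = 0.0334 and 0.0804). For all 3 genes replicate 2 of E– was the lowest E– pool and lay within the E+ range. Without replicate 1 of E– no muscle gene was DE, without replicate 2 of E– 7 were, and none was in the fit of all 24 pools. The actin gene actc1b and the slow myosin gene smyhc1 moved less, with a log2FC of 0.09 and -0.05 (adjusted p = 0.678 and 0.839).

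These 3 muscle genes are among the most strongly timed of the embryo: in E+ embryos atp2a1, ckma and ckmb rose by 6.95, 6.84 and 6.67 on the log2 scale from 12 to 24 hpf. A developmental score was therefore computed for each pool from 1391 genes that rose and 342 that fell from 12 to 24 hpf in E+ embryos, scaled so that the E+ pools of those times average 12 and 24 h. It was 19.50, 19.54, 19.82 and 19.43 h in the E+ and 19.93, 19.74, 19.73 and 19.74 h in the E– pools. The groups overlapped through replicate 3 of E+, and the means of 19.57 ± 0.171 and 19.79 ± 0.0941 h (SD, n = 4) differed by 0.215 h (p = 0.114 by a two-sided exact permutation test, which cannot go below 0.0286 with 4 against 4 pools). Of the genes higher in E– embryos, 29 of 187 (15.5%) rose from 12 to 24 hpf by the same rule, against 7.21% of all genes tested, and 1 fell. Of the genes lower in E– embryos, 4 of 122 (3.28%) fell over that time, against 1.6% of all genes, and 2 rose. Genes of other groups were timed too. In E+ embryos PKM, ndufa4b, ENO1 and cox6b1 rose from 12 to 24 hpf by 3.92, 2.66, 2.41 and 2.01 on the log2 scale. PGK2 and ALDOC rose by 1.37 and 1.15, whereas ALDOA and COX7A2 fell by 0.66 and 0.28. GPI and pgam1a changed by 0.32 and -0.22 (adjusted p = 0.148 and 0.202). PHOSPHO1 and cyp2aa3, lower in E– embryos, fell by 1.71 and 1.46, whereas HSP90B1, also lower, rose by 1.34. The part of developmental timing in these values and the muscle values was not tested.

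The other tissue lists had from 0 to 2 DE genes each, against 1.8% of all genes tested. Of 38 genes of neural progenitors and early neurons 2 rose: maptb, a tau gene of axons, at 0.47 ± 0.11 with overlapping pools (adjusted p = 0.0261), and dlb, the Notch ligand Delta B, at 0.41 ± 0.10 (adjusted p = 0.0334). epcam, a cell adhesion molecule of the enveloping layer, had 86.9, 58.3, 71.7 and 85.5 CPM in E+ and 105, 105, 102 and 97.2 CPM in E– pools, a log2FC of 0.44 ± 0.10 with no overlap (adjusted p = 0.0214). It was the only DE gene of 25 of that layer and the periderm. ecscr, an endothelial surface protein, fell by 0.79 ± 0.20 on the log2 scale (adjusted p = 0.0488) and was the only one of 19 endothelial genes. No gene was DE in the lists for heart (18 tested), primitive blood (19), neural crest and pigment (27), midbrain-hindbrain boundary and hindbrain (22), eye (19), hatching gland (10), or yolk syncytial layer and endoderm (16), and none was in the list for the segmentation clock (23).

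Among genes with descriptive names, PHOSPHO1 and ZYX had the smallest p of those that fell, though not the largest falls. PHOSPHO1 (ENSDARG00000008403), a phosphatase that releases phosphate from phosphocholine and phosphoethanolamine and is known for its role in bone mineral, had 41.4, 38.5, 35.6 and 40.8 CPM in E+ and 17.7, 24.08, 18.9 and 19.96 CPM in E– pools. The E+ level was 1.94-fold that of E–, with a log2FC of -0.96 ± 0.11 (adjusted p = 1.13e-05) and lane values of -0.945 and -0.971. ZYX (ENSDARG00000075733), zyxin of focal adhesions and actin stress fibres, had 39.0, 38.7, 38.3 and 35.3 CPM against 21.9, 19.6, 22.9 and 26.2 CPM, a log2FC of -0.74 ± 0.10 (adjusted p = 0.000257). Both remained DE under each of 16 alternative fits, with an adjusted p of at most 0.00253 and 0.0138.

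Further genes fell with well separated pools. g2e3, an E3 ubiquitin ligase, had 72.8, 87.5, 75.1 and 94.2 CPM in E+ and 59.8, 49.9, 55.9 and 57.1 CPM in E– pools, a log2FC of -0.57 ± 0.09 (adjusted p = 0.00133). ctsll, a cathepsin L-like protease by name, had 108, 125, 121 and 144 CPM against 48.9, 95.0, 82.4 and 77.7 CPM, a log2FC of -0.71 ± 0.12 (adjusted p = 0.00427). In E+ embryos ctsll fell by 3.25 on the log2 scale from 12 to 24 hpf. cyp2aa3, a cytochrome P450, had 28.6, 29.1, 32.0 and 34.4 CPM against 21.8, 15.7, 17.3 and 21.6 CPM, a log2FC of -0.70 ± 0.12 (adjusted p = 0.00274). Its relatives were looked up after this value was seen: of 8 cyp2aa genes tested, cyp2aa9 (-0.64 ± 0.13; adjusted p = 0.0091) and cyp2aa8 (-0.38 ± 0.09; adjusted p = 0.0244) also fell and none rose, while cyp2aa4 had a log2FC of 0.04 (adjusted p = 0.937). The genes of this family resemble each other, and reads that fit several of them were not counted.

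Several of the largest falls belonged to genes without a descriptive name. PRKRA, which the study of these samples had singled out, also fell by 2.17 ± 0.45 with no overlap (adjusted p = 0.0145). ENSDARG00000117717 was one of the more abundant transcripts of the embryo, with 1707, 1302, 1453 and 989.5 CPM in E+ and 255, 472, 722 and 338 CPM in E– pools, and ENSDARG00000117659 had 1281, 619, 1117 and 821 CPM against 225, 378, 564 and 346 CPM. In both, replicate 3 of E– was the highest E– pool and lay below every E+ pool. The log2FC was -1.61 ± 0.19 (adjusted p = 1.54e-05) and -1.34 ± 0.18 (adjusted p = 0.000193). ENSDARG00000117717 was also lower at 12 hpf (-0.93; adjusted p = 0.0515) and 24 hpf (-1.15; adjusted p = 0.0104), each time fitted alone, and ENSDARG00000117659 was lower at 12 hpf (-1.02; adjusted p = 0.00231), with -0.56 at 24 hpf (adjusted p = 0.447). si:dkey-73p2.4 (ENSDARG00000078832) had 4.68, 4.71, 3.90 and 5.36 CPM in E+ and 0.121, 0.204, 0.4 and 1.63 CPM in E– pools, a log2FC of -2.96 ± 0.44 (adjusted p = 0.00073). Its neighbour by name si:dkey-73p2.2, among the genes the study of these samples singled out, had 2.38, 1.28, 2.504 and 2.65 CPM against 0.607, 0.204, 0.267 and 0.0628 CPM, a log2FC of -2.89 ± 0.52 (adjusted p = 0.00558). Neither overlapped between the groups. A further gene of this name, si:dkey-73p2.3, had a log2FC of 0.42 ± 0.51 with overlapping pools (adjusted p = 0.808).

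A pair of genes had the largest falls and the most uneven pools. si:ch73-368j24.14 (ENSDARG00000105400) had 0.873, 49.2, 41.2 and 43.8 CPM in E+ and 0.607, 0.068, 0.6 and 1.13 CPM in E– pools, a log2FC of -5.78 ± 0.64 (adjusted p = 1.13e-05). si:dkey-261m9.18 (ENSDARG00000109755) had 1.35, 88.6, 48.7 and 50.2 CPM against 2.00, 0.952, 1.80 and 1.44 CPM, a log2FC of -4.93 ± 0.57 (adjusted p = 1.54e-05). In both genes replicate 1 of E+ lay within the range of the E– pools and the other 3 E+ pools were far above it, so the mean of the E+ group describes no pool. A split between low and high pools also appeared at 12 hpf in both diets. At 24 hpf only replicate 1 of E– was that low, and no E+ pool was. With library sizes scaled over all 24 pools, si:ch73-368j24.14 was 1.07, 0.446, 53.04 and 20.3 CPM in E+ and 0.8294, 44.5, 0.772 and 0.117 CPM in E– embryos at 12 hpf. At 24 hpf it was 28.2, 27.3, 11.9 and 39.5 CPM in E+ and 0.262, 34.2, 9.81 and 7.04 CPM in E– embryos. The pools that were high in si:ch73-368j24.14 were also those that were high in si:dkey-261m9.18, which had 1.98, 2.95, 62.2 and 24.13 CPM in E+ and 0.957, 41.7, 2.25 and 1.64 CPM in E– embryos at 12 hpf. The difference at 12 and at 24 hpf did not pass the test for si:ch73-368j24.14 (adjusted p = 0.919 and 0.623) or si:dkey-261m9.18 (adjusted p = 0.855 and 0.459).

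**Figure D4:**
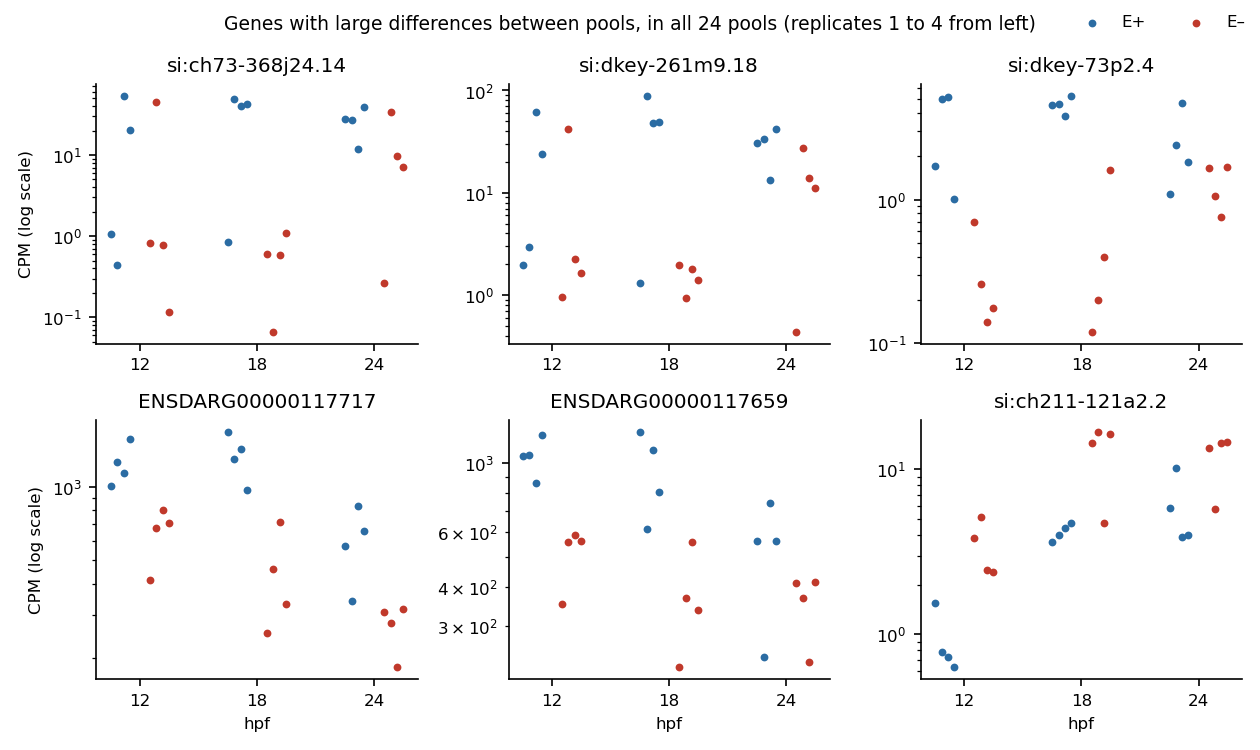
CPM on a log scale (y axis) of 6 genes in the 24 pools, E+ in blue and E– in red, at 12, 18 and 24 hpf (x axis), with replicates 1 to 4 from left to right in each group and library sizes scaled over all pools. In si:ch73-368j24.14 and si:dkey-261m9.18 single pools of either diet sit below 3 CPM or above 7 CPM, whereas in ENSDARG00000117717 all E– pools of 18 hpf lie below all E+ pools.

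Several genes outside the gene lists rose by about as much as the glycolytic enzymes or more. MT1X (ENSDARG00000041623), a metallothionein that binds zinc and copper, had 9.60, 5.88, 8.17 and 7.88 CPM in E+ and 17.6, 18.0, 16.0 and 12.6 CPM in E– pools. That was a 2.05-fold higher level with no overlap, a log2FC of 1.04 ± 0.16 (adjusted p = 0.00109), and it was DE under each of the 16 alternative fits. At 12 and 24 hpf its log2FC was 0.43 and -0.16 (adjusted p = 0.561 and 0.909). rbp4l, named as a relative of retinol-binding protein, had 25.8, 29.0, 28.7 and 33.6 CPM against 44.7, 43.5, 47.5 and 42.9 CPM, a log2FC of 0.61 ± 0.09 (adjusted p = 0.00111). tia1l, a relative of the RNA-binding protein TIA1, had 33.7, 35.4, 25.0 and 38.2 CPM against 52.9, 47.4, 43.8 and 56.1 CPM, a log2FC of 0.60 ± 0.11 (adjusted p = 0.00681). Neither overlapped. si:ch211-121a2.2 had 3.73, 4.06, 4.49 and 4.83 CPM in E+ and 14.7, 17.3, 4.798 and 16.63 CPM in E– pools, a log2FC of 1.64 ± 0.25 (adjusted p = 0.00109), with replicate 3 of E– inside the E+ range and the other E– pools well above every E+ pool.

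The largest rises were of genes near the limit of detection. ENSDARG00000108939 had 0.159, 0, 0.442 and 0.397 CPM in E+ and 1.58, 3.06, 1.00 and 3.14 CPM in E– pools, a log2FC of 3.15 ± 0.60 (adjusted p = 0.0079). Next came si:ch211-113a14.17 (2.45 ± 0.56; adjusted p = 0.0277), the immunoglobulin gene ighd (2.33 ± 0.54; adjusted p = 0.0303), which the study of these samples had singled out, and c3a.5, a complement C3 gene (2.25 ± 0.61; adjusted p = 0.0714). At this depth such levels rest on few reads, and c3a.5 overlapped between the groups.

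Of 24 inflammatory and interferon genes tested, 1 was DE, against 1.8% of all genes. That gene was nfkbiaa (ENSDARG00000005481), the NF-κB inhibitor IκBα, with 4.84, 8.45, 3.83 and 8.60 CPM in E+ and 2.73, 1.496, 3.00 and 2.89 CPM in E– pools. The groups did not overlap, and the log2FC was -1.35 ± 0.27 (adjusted p = 0.0129). The study of these samples had singled out 10 transcription factors, of which 7 were matched by symbol and tested. Among these 7, hsf1 and hmgb2b (0.50 ± 0.12; adjusted p = 0.0393) rose and tox2 (-0.40 ± 0.10; adjusted p = 0.0535) and mbd3b (-0.35 ± 0.09; adjusted p = 0.0559) fell. Their choice rested on these samples and is not independent evidence.

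The 12 and 24 hpf pools, which share no embryo with those of 18 hpf, show how far the 18 hpf differences held at other times. Fitted alone, 7 of 17163 genes (0.0408%) were DE at 12 hpf and 21 of 17405 (0.121%) at 24 hpf. Of the DE genes of 18 hpf that were tested at 12 hpf, 214 of 304 (70.4%) had a log2FC of the same sign there, against 55.5% of all genes, and at 24 hpf 248 of 310 did (80.0%), against 58.6% of all genes. The sizes were smaller: genes that were higher at 18 hpf had a median of 0.59 there, 0.13 at 12 hpf and 0.16 at 24 hpf. DE genes of 18 hpf tested at all times numbered 302, with no matching count made over all genes. Of these, 98 were higher and 82 lower in E– embryos at each time. GPI was an example, with a log2FC of 1.04 at 12 hpf (adjusted p = 0.413) and 0.67 at 24 hpf (adjusted p = 0.0265). Its E– pools of 12 hpf were uneven, with 65.3, 19.4, 89.9 and 29.7 CPM against 27.7, 26.9, 14.9 and 29.9 CPM in E+. ctsll was DE at 24 hpf with -0.74 (adjusted p = 0.0238) and had -0.19 at 12 hpf (adjusted p = 0.713).

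Whether an effect at 18 hpf differed from that at 12 and 24 hpf was tested directly in the 24 pools. Of 19597 genes, 2 (0.0102%) passed at an FDR under 0.1 and 1148 had an unadjusted p under 0.05. For nfkbiaa the 18 hpf effect lay 1.98 below the mean of the other times on the log2 scale (adjusted p = 0.0524). Its log2FC was 0.76 at 12 hpf and 0.50 at 24 hpf (adjusted p = 0.478 and 0.768), opposite to that at 18 hpf. For tia1l the 18 hpf effect lay 0.73 above the others (adjusted p = 0.0594), with -0.15 at 12 hpf and -0.11 at 24 hpf (adjusted p = 0.752 and 0.817). With library sizes scaled over all pools tia1l was 81.0 to 102 CPM in E+ embryos at 12 hpf, 24.5 to 37.5 CPM at 18 hpf and 42.2 to 51.9 CPM at 24 hpf, and in E– embryos 71.3 to 94.0, 43.3 to 54.9 and 42.1 to 49.8 CPM. Without replicate 1 or 4 of E– or replicate 2 of E+ neither gene passed (adjusted p from 0.12 to 0.166 for nfkbiaa and from 0.164 to 0.215 for tia1l), and tia1l did not pass without replicate 1 or 3 of E+ either (adjusted p = 0.131 and 0.221). The E+ embryos had their lowest tia1l levels at 18 hpf, where the E– range overlapped that of 24 hpf.

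**Figure D5:**
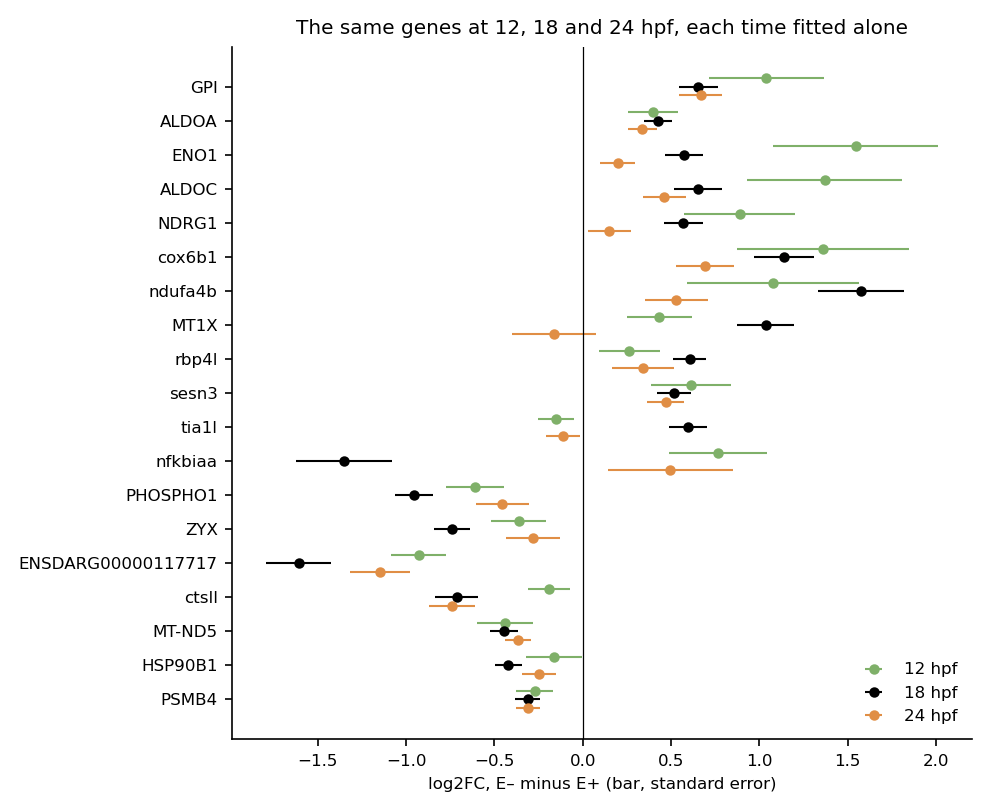
Log2FC (x axis, E– minus E+) with its standard error for 19 genes at 12 hpf (green), 18 hpf (black) and 24 hpf (orange), each time fitted alone. The 4 glycolytic genes keep a positive sign at all times, though none of them was DE at 12 hpf and only GPI was at 24 hpf. At 12 hpf replicates 1 and 3 of E– were the highest pools for all 4, and replicate 2 of E– lay within or below the E+ range. ENSDARG00000117717 and MT-ND5 keep a negative sign, nfkbiaa and tia1l have the opposite sign at 18 hpf, and MT1X has it at 24 hpf.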

How the data were processed

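The authors trimmed reads with bbduk, aligned them to GRCz11 with STAR 2.7.3a and deposited raw counts per Ensembl gene, 1 column per pool, beside 4 tallies of unassigned reads; the tallies were left out of library sizes, and 0 columns were unused. Per the methods, raw counts per gene were summarised with edgeR. The step that assigned reads to genes and its strand setting are not given in the sources used here, so genes that overlap on opposite strands are uncertain.

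For the 8 pools of 18 hpf, edgeR 4.0.16 was run under R 4.3.3 (filterByExpr, TMMwsp scaling, quasi-likelihood test, Benjamini–Hochberg FDR under 0.1). The methods of the study do not name a gene filter. CPM used scaled library sizes, and each log2FC was divided by the square root of F to give a standard error. Replicate pools differed by more than sampling noise (chi-square per degree of freedom 4.88 to 12.1). Reads carried no molecular identifiers, so depth speaks to counting error alone.

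Symbols were found for 29201 of 32520 identifiers. Many are names of human counterparts and 6136 genes share theirs with another gene, so identifiers are given where copies could be confused. Of 933 symbols in 35 gene lists 875 were matched. A naming rule picked the 12 DE genes of smallest p in each direction, and the 8 largest rises and falls with at least 1 CPM in the higher group. It also picked DE members and the 2 members of smallest p of each list, the 10 of smallest p in the test between times, and TTPA, TTPAL and the GPX4 genes. Not every gene picked is described here. Others named are list members given for comparison. PGK2 and the relatives of cyp2aa3 and si:dkey-73p2.2 were outside the rule and were looked up after values had been seen. The lists, the rule and the pools were chosen with earlier results of these data known. Stage genes had an FDR under 0.01 and a log2FC of at least 2 in size. Alternatives were all 24 pools, no gene filter, TMM or RLE scaling, DESeq2 1.42.0, edgeR's newer quasi-likelihood method, a lane term, a replicate block, an FDR under 0.05 and leaving out each pool. The test was tried on simulated counts. It called 40 of 100 genes with a simulated log2FC of 0.5 in size and 75 of 100 with 1, beside 8 unchanged genes. A gene that was not DE may therefore still have changed by such an amount. Python 3.11.15 and scipy 1.17.1 gave the exact tests. Genome coordinates and sequences are not used here.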

Additional observations from a re-analysis of the deposited data

Results flagged for a closer look

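In 104 groups of 4 pools (9 library measures, the developmental score and 42 genes, each in E+ and E–), 13 had 1 pool apart from the others by Dixon's test. Chance would give about 5.2 among independent groups chosen without sight of their values. The genes here were chosen with earlier results known, so the 13 cannot be read against that figure. The number given is the gap to the nearest pool over the range of the group. Among E+ pools replicate 2 stood high in reads that did not map (0.959) and low in si:dkey-73p2.2 (0.851). Replicate 1 of E+ stood low in si:ch73-368j24.14 (0.954) and si:dkey-261m9.18 (0.854). Replicate 3 of E+ stood high in cox6b1 (0.982) and calr3b (0.912), and replicate 4 of E+ low in hsf1 (0.904). Among E– pools replicate 2 stood low in the number of genes with a read (0.908) and in nfkbiaa (0.863), atp2a1 (0.844) and ckmb (0.912). Replicate 1 of E– stood high in the developmental score (0.951) and replicate 3 of E– low in si:ch211-121a2.2 (0.872). Gene values were compared as log2 CPM.

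For nfkbiaa and tia1l the log2FC between E– and E+ embryos at 18 hpf passed the test against the other times. The adjusted p was 0.0524 and 0.0594 from edgeR's quasi-likelihood test. Neither passed without replicate 1 or 4 of E– or replicate 2 of E+, and tia1l did not without replicate 1 or 3 of E+. nfkbiaa was lower in each of the 4 E– pools than in any E+ pool at 18 hpf, and tia1l was higher in each.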

How the results depend on the processing

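The 312 DE genes became 78 with all 24 pools in the fit (54 higher, 24 lower; 76 of them among the 312), 531 without a gene filter (310 and 221) and 177 at an FDR under 0.05 (109 and 68). Leaving out 1 pool gave 158 to 337 genes, 98 to 212 higher and 60 to 125 lower. DESeq2 called 425, RLE scaling 307 and TMM 304. Replicate numbers did not pair the pools (correlations of the same-numbered deviations from -0.0368 to 0.0333); with the replicate block 421 genes were DE, 2 differed between times, and the score difference was 0.215 h (exact p = 0.25). Genes whose effect differed between times numbered 57 with DESeq2, 54 without a filter, 2 with the newer method and 0 to 15 without 1 pool (0 without replicate 1 or 4 of E– or replicate 2 of E+, 15 without replicate 4 of E+). The score difference ranged from 0.167 to 0.297 h without 1 pool, and was 0.297 h without replicate 3 of E+ (exact permutation test, p = 0.0286). The 122 genes named and tested included genes that were not DE and had no call to lose. The losses are therefore a larger share of the DE genes among them than of the 122. Of those DE genes, 50 lost their call with all 24 pools and 12 with DESeq2. From 11 to 30 did so without 1 pool, and 0 of the 122 turned their direction while called in the alternatives run. The cause was not tested. At 12361569 to 19733049 counts a pool, changes of genes under 1 CPM rest on few reads.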

Other observations

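Markers of germ cells, which carry maternal transcripts, lay above the other tissue lists without passing the test: of 14 tested none was DE, 10 had a log2FC above 0 and the median was 0.29, at a median standard error of 0.32. Over all genes tested 49.8% had a log2FC above 0. buc, which organises germ plasm, had 0.476, 0.535, 0.442 and 0.0662 CPM in E+ and 0.85, 1.29, 0.866 and 0.753 CPM in E– pools (log2FC 1.28 ± 0.56; adjusted p = 0.331 from edgeR's quasi-likelihood test), with no overlap between the groups at a level of few reads.

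Reads that fell on more than 1 gene made up 1.45% ± 0.0327 of reads in E+ and 1.23% ± 0.0622 in E– pools (SD, n = 4; p = 0.0286 by a two-sided exact permutation test, its lower limit at this size, and 0.257 after adjustment over 9 library measures). No E– pool reached the lowest E+ pool. Such reads are on no gene in the counts, so that the genes they came from are not known here.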
